A study of Mus musculus with 17 samples.

Results

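The response of dorsal root ganglia (DRGs) to nerve injury was examined in mice whose sensory neurons lack mTOR, by comparing Mtor-cKO mice 7 days after spared nerve injury (SNI) with uninjured Mtor-cKO mice. The comparison used 8 of the 17 libraries of the series, 4 from day 7 and 4 from baseline, and all 13214 of 19152 genes whose mean reached at least 1 FPKM (fragments per kilobase of transcript, scaled to the mapped fragments of the library) in either group. Of these genes, 12675 reached that level in both groups, 451 only at day 7 and 88 only at baseline. Mtor-cKO mice carried loxP-flanked Mtor alleles and Adv-Cre, in which the Advillin gene drives Cre recombinase in peripheral sensory neurons (genotype Adv-Cre::Mtorfl/fl, strain C57BL/6). Day 7 mice had received SNI on both sides and baseline mice no surgery. Mtor fl/fl mice without Cre (same strain; 5 libraries at day 7 and 4 at baseline) served for the test of whether the injury response differed between genotypes. Each library was made from 4 DRGs of a mouse (left and right L4 and L5), so a mouse was the replicate.

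SNI cuts branches of the sciatic nerve and spares another, and is a model of neuropathic pain. The cell bodies of the cut axons lie in the L4 and L5 DRGs, where they switch on transcription factors, growth-associated proteins, neuropeptides and the cytokine CSF1. mTOR is a kinase that, as part of a complex named mTORC1, promotes protein synthesis and cell growth. A DRG also holds satellite glia, Schwann cells, macrophages, fibroblasts and vessels, in which Adv-Cre is not expected to act, so a change measured here can come from neurons or from these cells. In such bulk samples, a change in the number of cells of a type and a change in RNA per cell cannot be told apart.

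Mtor was measured in each library as a check of the labels. Its level was 3.44, 5.83, 5.48 and 5.10 FPKM in Mtor-cKO replicates 1 to 4 at day 7, against 3.16, 3.87, 5.81 and 6.36 FPKM in Mtor-cKO replicates 1 to 4 at baseline. In Mtor fl/fl mice it was 14.43, 12.11, 5.96, 7.56 and 9.62 FPKM at day 7 and 15.97, 8.58, 9.77 and 9.82 FPKM at baseline. At both time points the highest Mtor-cKO value was under the lowest Mtor fl/fl value. The 2 Mtor-cKO groups overlapped, and the day 7 over baseline difference was 0.03 ± 0.29 on the log2 scale (± SE, an approximate standard error; edgeR adjusted p = 0.968). The gene's value takes reads from the whole transcript and from cells without Cre, so it is no measure of how complete the deletion was.

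Expected counts summed to between 20309892 and 20751731 per Mtor-cKO library at day 7, and to between 18902897 and 21076542 at baseline. Markers of neurons were high in all 8 libraries, with summed levels of 14 pan-neuronal genes of 5600 to 6250 FPKM at day 7 and 5400 to 5770 FPKM at baseline, while 11 spinal cord markers summed to at most 2.89 FPKM at day 7 and 3.34 FPKM at baseline. Some libraries stood apart in markers of tissue around the ganglion. Skeletal muscle markers (10 genes) summed to 455 FPKM in replicate 1 at day 7, against 31.9 to 64.7 FPKM in the other 3 day 7 libraries, and to 526 FPKM in replicate 2 at baseline, against 4.99 to 78.3 FPKM in the other 3 baseline libraries. Macrophage markers (15 genes) summed to 311 to 535 FPKM at day 7 and to 122 to 269 FPKM at baseline, where the highest value was that of replicate 4. Named genes that passed without each single library but not without both muscle-high libraries are given with that second value, and those said to miss 0.05 without a single library missed it without both as well.

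Changes of more than 2-fold after injury were mostly increases, while smaller changes had no fixed balance of direction. With all 17 libraries in the fit, 137 genes were higher at day 7 (1.04% of the 13214 tested) and 5 lower (0.0378%), by edgeR's quasi-likelihood test with a Benjamini-Hochberg adjusted p below 0.05 together with more than a 2-fold change. At the adjusted p alone, 598 genes rose (4.53%) and 319 fell (2.41%), with median log2 fold changes of 0.59 among those that rose and -0.42 among those that fell, and the median over all genes was -0.0021. These shares are the background for the counts of list members that rose or fell given below. At an unadjusted p under 0.05, 1973 of the 13214 genes were higher and 1433 lower. These are the background for the unadjusted counts of list members. The share of upward changes at the adjusted p alone was 65.2% in this fit, 53.7% with the 8 Mtor-cKO libraries alone (2245 rose and 1934 fell), 53.2% with RLE normalization (530 rose and 467 fell), 50.3% with the filterByExpr filter (545 rose and 539 fell) and 48.8% by DESeq2 (884 rose and 926 fell), so that the direction of the majority turned in DESeq2. Of the 137 higher genes, 94 changed by 2- to 4-fold, 23 by 4- to 8-fold, 11 by 8- to 32-fold and 9 by more. In 133 of the 137 the 4 day 7 libraries all lay above the 4 baseline libraries, an arrangement found in 15.8% of all genes tested. The 137 were selected on these same libraries, so this count describes them and lends the calls no further support. The filter was passed only through the day 7 group by 52 of the 137, and only through the baseline group by 4 of the 5.

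**Figure D1:**
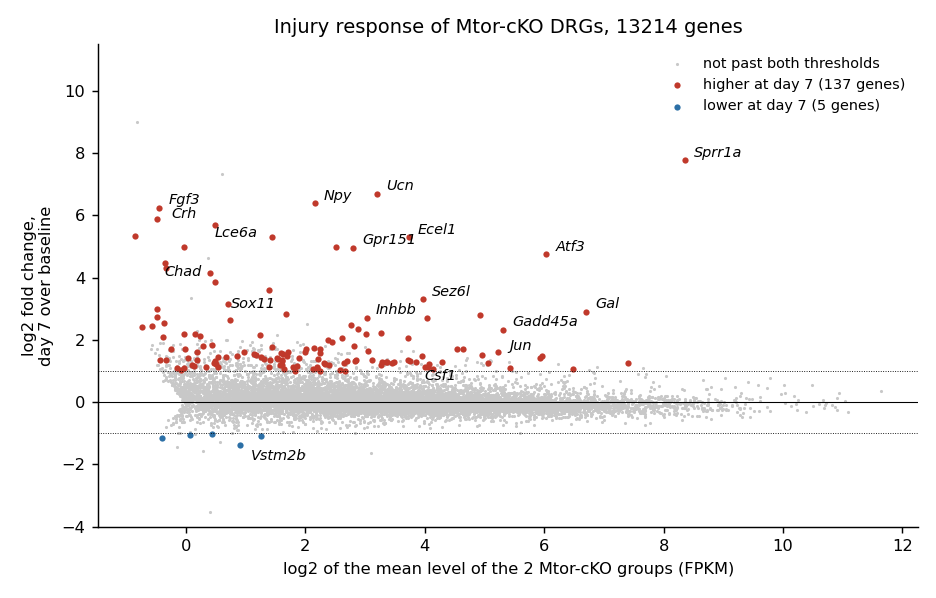
Log2 fold change of each of 13214 genes (day 7 over baseline, Mtor-cKO) against the log2 mean level of the 2 groups in FPKM; red, 137 genes higher, blue, 5 genes lower, dotted lines at 2-fold. Genes of axonal injury such as Sprr1a, Atf3 and Gal lie far above the dotted line, while the 5 blue genes lie between -1.38 and -1.03.

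When only the 8 Mtor-cKO libraries were fitted, 386 genes were higher (2.92%) and 7 lower, and 136 of the 137 were among the 386. DESeq2 gave 218 and 7. Without replicate 4 at baseline, the library nearest to day 7 in macrophage markers, 232 genes were higher and 8 lower. Without the 2 libraries highest in muscle, 92 genes were higher and 1 lower, and 93 of the 137 kept an adjusted p under 0.05. In 104 of the 137 the adjusted p stayed under 0.05 without each Mtor-cKO library in turn.

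Transcription factors of the injury response were among the genes that rose. Atf3, a stress-induced factor of injured neurons, was at 120.46, 165.50, 107.09 and 113.22 FPKM at day 7, against 3.24, 4.45, 3.81 and 7.07 FPKM at baseline. The groups were far apart, by 4.74 ± 0.31 on the log2 scale (± SE; edgeR adjusted p = 3.62e-07). Sox11, a factor of neuronal growth, was at 4.95, 7.36, 5.06 and 4.98 FPKM at day 7, against 0.75, 0.86, 0.62 and 0.84 FPKM at baseline, which is 2.84 on the log2 scale (edgeR adjusted p = 2.93e-06). Jun, a component of the AP-1 factor, was at 59.52, 68.52, 51.25 and 47.69 FPKM at day 7, against 18.36, 16.25, 15.92 and 22.46 FPKM at baseline. Its lowest day 7 library was above its highest baseline library, and it rose by 1.61 on the log2 scale (edgeR adjusted p = 1.43e-05). Of 35 such factors tested, 14 rose, 0 fell and 21 did not pass (unadjusted, 22 were higher and 0 lower; DESeq2, 17 and 0), with a median log2 fold change of 0.40 against -0.0021 over all genes. The others that rose by more than 2-fold were Nfil3, a basic leucine zipper factor (1.40; edgeR adjusted p = 0.00415), and Fosl2, another AP-1 component (1.26; edgeR adjusted p = 0.00312). Of the 14, these 5 and Crem, Klf6, Stat5a and Stat5b (9 in all) stayed under 0.05 without each library in turn. Without both muscle-high libraries the adjusted p was 0.0534 for Nfil3, 0.0776 for Crem and 0.0658 for Stat5b.

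Proteins of axon growth rose with them. Sprr1a, a small proline-rich protein of regenerating axons, had the largest fold change of all genes called. It was at 592.67, 862.28, 659.97 and 506.61 FPKM at day 7, against 1.39, 6.22, 1.2 and 3.03 FPKM at baseline, higher by 7.76 ± 0.53 on the log2 scale (± SE; edgeR adjusted p = 4.29e-07). Ecel1, an endopeptidase-like protein of injured neurons, was at 23.58, 33.62, 20.73 and 26.13 FPKM at day 7, against 0.18, 0.66, 0.32 and 1.39 FPKM at baseline (5.29 on the log2 scale; edgeR adjusted p = 1.82e-05). Gap43, a growth cone protein with a high level in uninjured neurons, changed less, with 271.09, 309.08, 252.83 and 270.46 FPKM at day 7, against 146.02, 143.14, 152.03 and 132.28 FPKM at baseline. It rose by 0.92 on the log2 scale (edgeR adjusted p = 0.00162), and here too the groups did not overlap. Of 32 regeneration effectors tested, 22 rose, 16 of them by more than 2-fold, and 10 did not pass, with a median log2 fold change of 0.99. Among them Stmn4, a microtubule regulator, rose by 2.81, Flrt3, a membrane protein of axon guidance, by 2.71, Gadd45a, a stress response gene, by 2.32 and Plaur, the urokinase receptor, by 1.80. Of the 22, 18 stayed under an adjusted p of 0.05 without each library in turn. The list was written with earlier results of these data known, so its count is a description.

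Most genes of the axon cytoskeleton did not pass the test, although a larger share rose than of all genes. Of 32 genes, 6 rose and 1 fell, where 4.53% of all genes tested rose and 2.41% fell, and the median log2 fold change was -0.00485. Tuba1c and Tubb6, which encode tubulins, rose by 2.06 and 1.70 (edgeR adjusted p = 8.76e-06 and 7.08e-05), and Tubb2b, a neuronal tubulin, by 0.85 (edgeR adjusted p = 0.00131). Stmn2, a tubulin-binding growth protein, was at 1204.81, 1345.74, 1181.50 and 1215.93 FPKM at day 7, against 780.68, 877.37, 847.37 and 794.05 FPKM at baseline (0.56 on the log2 scale; edgeR adjusted p = 0.00412). These 4 passed without each library in turn and the other 3, Tuba1a, Tubb2a and Stmn3, did not.

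**Figure D2:**
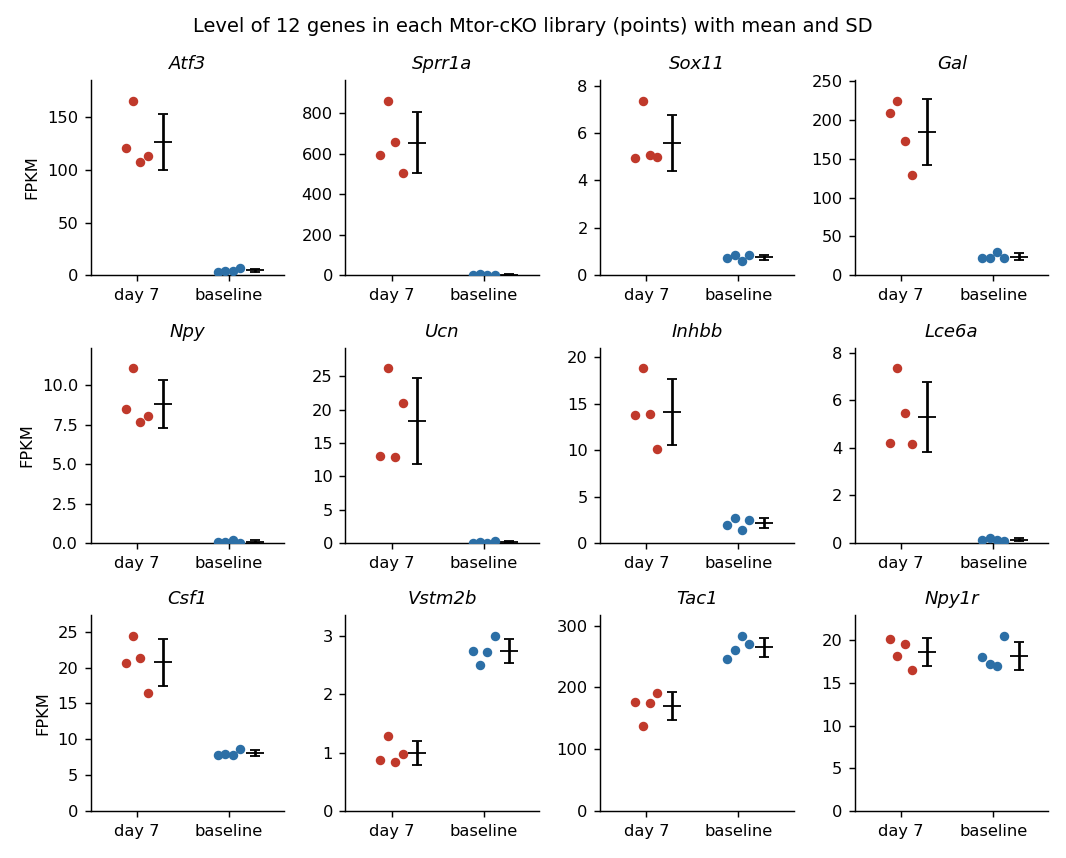
Level in FPKM of 12 genes in each Mtor-cKO library (points; red, day 7; blue, baseline), with the mean and SD of 4 libraries beside them; each axis starts at 0. The groups do not overlap in 11 of the genes, and Npy1r is the one in which they do. Of all genes tested, 15.8% had every day 7 library above baseline and 13.5% every one below. The 11 had passed the test on these same libraries, so their separation is a description.

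Of 18 neuropeptide precursors tested, 5 rose, 1 fell and 12 did not pass, and their median log2 fold change was -0.03. Ucn, which encodes urocortin, a peptide of the corticotropin-releasing hormone family, was at 13.08, 26.20, 12.90 and 21.08 FPKM at day 7, against 0.00, 0.17, 0.08 and 0.38 FPKM at baseline. It was higher by 6.69 ± 0.59 on the log2 scale (± SE; edgeR adjusted p = 4.98e-06). Npy, which encodes neuropeptide Y, was at 8.51, 11.05, 7.69 and 8.03 FPKM at day 7, against 0.09, 0.10, 0.19 and 0.00 FPKM at baseline (6.38; edgeR adjusted p = 3.46e-05). Crh, the gene of corticotropin-releasing hormone itself, was at 3.00, 2.82, 2.34 and 2.87 FPKM at day 7, against 0.00, 0.04, 0.04 and 0.11 FPKM at baseline (5.68; edgeR adjusted p = 6.73e-05). These 3 were nearly silent before injury, with 8, 4 and 5 counts over the 4 baseline libraries, so the size of their folds is uncertain. Gal, which encodes galanin, had a higher baseline, with 209.41, 224.89, 172.97 and 129.39 FPKM at day 7, against 22.08, 22.03, 30.23 and 22.15 FPKM at baseline (2.91; edgeR adjusted p = 1.96e-06). Nts, which encodes neurotensin, was at 4.05, 4.41, 3.48 and 4.97 FPKM at day 7, against 1.45, 1.78, 1.72 and 1.40 FPKM at baseline, which is 1.39 on the log2 scale (edgeR adjusted p = 0.00992, and 0.0611 without both muscle-high libraries). One precursor fell, Tac1, which encodes substance P, with 175.91, 137.44, 175.04 and 190.55 FPKM at day 7, against 246.31, 260.39, 282.95 and 270.06 FPKM at baseline (-0.67; edgeR adjusted p = 0.0148, and at most 0.0604 without 1 library, replicate 2 of day 7).

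Among receptors, a pair of neuropeptide and orphan receptors rose strongly, and several others of nociceptors fell by less than 2-fold. Gpr151, an orphan receptor, was at 12.61, 18.29, 12.37 and 10.79 FPKM at day 7, against 0.42, 0.33, 0.48 and 0.47 FPKM at baseline (4.96 on the log2 scale; edgeR adjusted p = 2.53e-07). A receptor for cholecystokinin, Cckbr, was at 9.80, 14.40, 9.35 and 10.93 FPKM at day 7, against 0.07, 0.22, 0.13 and 0.94 FPKM at baseline (4.99; edgeR adjusted p = 3.55e-05). Gpr149, another orphan receptor, fell to 4.87, 5.08, 6.44 and 5.27 FPKM at day 7, against 8.30, 9.26, 9.41 and 9.15 FPKM at baseline (-0.75; edgeR adjusted p = 0.00156). Sstr2, a somatostatin receptor, also fell (-0.86; edgeR adjusted p = 0.0172, and at most 0.0675 without 1 library, replicate 2 of day 7), and 15 of the 19 receptors of this list did not pass. The neuropeptide Y receptors were among them, with log2 fold changes of -0.0036 for Npy1r (edgeR adjusted p = 0.989) and -0.10 for Npy2r (edgeR adjusted p = 0.715). Gpr119, a receptor of lipid ligands, was below the filter, with 0.43, 0.32, 0.40 and 0.61 FPKM at day 7 and 0.07, 0.05, 0.09 and 0.15 FPKM at baseline.

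Of 28 opioid and inflammatory receptors, 6 fell, 0 rose and 22 did not pass (unadjusted, 11 were lower and 3 higher; DESeq2, 9 and 0), and the median log2 fold change was -0.31. Hrh3, a histamine receptor, was at 1.56, 1.77, 1.78 and 1.91 FPKM at day 7, against 3.23, 3.20, 3.27 and 2.73 FPKM at baseline (-0.85; edgeR adjusted p = 0.013), and was the one that stayed under 0.05 without each library in turn, where its highest value was 0.0491, although it was 0.129 without both muscle-high libraries. Htr3a and Htr3b, the subunits of the serotonin-gated ion channel, fell by 0.74 and 0.83 on the log2 scale (edgeR adjusted p = 0.0186 and 0.0177, at most 0.0685 and 0.0619 without replicate 2 of day 7). Htr3a was at 29.90, 26.17, 32.90 and 30.99 FPKM at day 7, against 49.23, 39.85, 51.17 and 56.51 FPKM at baseline. Of 11 Mrgpr receptors, found in itch and nociceptive neurons, Mrgpra2b and Mrgpra3 fell (-0.76 and -0.66; edgeR adjusted p = 0.013 and 0.0345, at most 0.0578 without replicate 3 of baseline and 0.108 without replicate 2 of day 7), 9 did not pass, and the median was -0.51. Mrgpra genes are close paralogs, as are the tubulins above, and how reads were split among such copies is uncertain.

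Ion channel lists had negative medians, and most members did not pass the test, although potassium channels fell at a larger share than all genes. Over all genes tested, 4.53% rose and 2.41% fell, so a count of 1 member is not read as a result about its list. Of 67 potassium channel genes, 8 fell, 1 rose and 58 did not pass, with a median log2 fold change of -0.24. Kcnip1, Kcnip2, Kcnip3 and Kcnip4, among the 8 that fell, encode KChIP proteins, which bind A-type potassium channels. Of these Kcnip2 was at 39.12, 37.28, 40.18 and 39.31 FPKM at day 7, against 56.82, 60.15, 59.95 and 58.52 FPKM at baseline, so that the 2 groups lay well apart (-0.62; edgeR adjusted p = 0.00284), and Kcnip1 fell by 0.80 on the log2 scale (edgeR adjusted p = 0.0053). Kcnip1, Kcnip2, Kcnmb1, an accessory subunit of the calcium-activated channel (-0.79; edgeR adjusted p = 0.00984), and the gene that rose passed without each library in turn. Without both muscle-high libraries the adjusted p was 0.07 for Kcnip1 and 0.0732 for Kcnmb1. That gene was Kcnk16, a leak channel of the K2P family, with 1.49, 2.09, 1.24 and 1.21 FPKM at day 7, against 0.06, 0.12, 0.06 and 0.00 FPKM at baseline (4.47; edgeR adjusted p = 0.000714). Of 15 sodium channel genes 14 had a negative log2 fold change and 1 fell, Fgf13, which binds the pore subunits (-0.37; edgeR adjusted p = 0.0282, at most 0.096 without replicate 1 of day 7). The pain-related pore subunits Scn10a and Scn11a had log2 fold changes of -0.46 (edgeR adjusted p = 0.2) and -0.48 (edgeR adjusted p = 0.195). In the fit of the 8 Mtor-cKO libraries alone, 12 of the 15 fell, where 14.6% of all genes fell. Among 18 calcium channel genes 1 rose, Cacna2d1, the subunit that binds gabapentin (0.74; edgeR adjusted p = 0.0308, at most 0.0975 without replicate 2 of day 7), and of 30 sensory transduction channels 1 fell, Trpa1, the receptor of irritants (-0.69; edgeR adjusted p = 0.0468, at most 0.135 without replicate 2 of baseline).

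**Figure D3:**
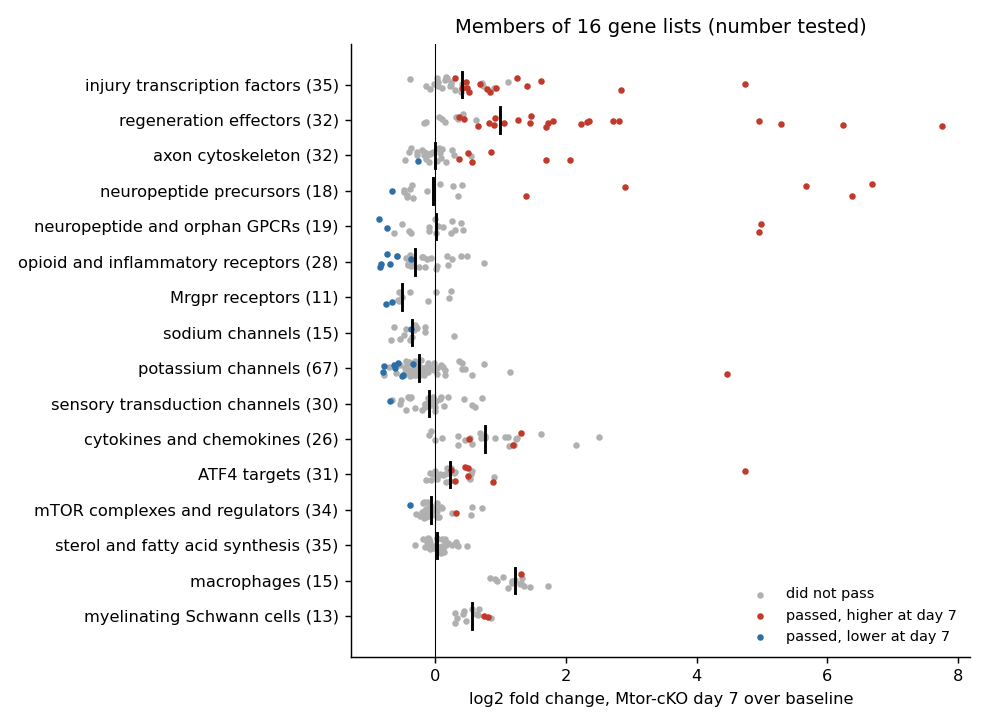
Log2 fold change (Mtor-cKO, day 7 over baseline) of the tested members of 16 gene lists, 1 point a gene (red, rose; blue, fell; grey, did not pass the edgeR test at an adjusted p of 0.05), with the list's median as a bar. Injury factors and regeneration effectors have medians of 0.40 and 0.99, and macrophage markers all lie above 0. The channel lists, the Mrgpr receptors and the opioid and inflammatory receptors have negative medians. Neuropeptide and orphan receptors have a median of 0.006.

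Markers of neurons themselves had mostly negative log2 fold changes. Of 14 pan-neuronal genes 2 fell, Snap25, a synaptic protein (-0.53; edgeR adjusted p = 0.0359), and Isl1, a factor of sensory neuron identity (-0.47; edgeR adjusted p = 0.0138), 1 rose, Gap43, and the median was -0.27. Without each library in turn the adjusted p of these reached 0.109 for Snap25 (replicate 2 of baseline) and 0.0516 for Isl1 (replicate 2 of day 7). The medians were -0.28, -0.42 and -0.32 for markers of large myelinated, peptidergic and nonpeptidergic neurons. The part of these shifts in the falls of receptors and channels was not tested. Gfra3, the receptor of the growth factor artemin and a peptidergic marker, rose, with 46.96, 60.83, 46.97 and 45.31 FPKM at day 7, against 24.68, 23.50, 29.55 and 34.06 FPKM at baseline (0.82; edgeR adjusted p = 0.00191).

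Secreted signals rose in a few genes. Csf1, the growth factor of macrophages and microglia, was at 20.69, 24.37, 21.33 and 16.49 FPKM at day 7, against 7.86, 7.98, 7.85 and 8.67 FPKM at baseline, higher by 1.30 ± 0.21 on the log2 scale (± SE; edgeR adjusted p = 0.00163). Inhbb, which encodes a subunit of activin and inhibin, was at 13.78, 18.81, 13.96 and 10.14 FPKM at day 7, against 1.94, 2.67, 1.46 and 2.46 FPKM at baseline (2.71; edgeR adjusted p = 1.82e-05). Fst, the activin-binding protein follistatin, rose less, with 3.21, 4.16, 2.46 and 2.01 FPKM at day 7, against 1.32, 1.63, 1.46 and 1.86 FPKM at baseline (0.89; edgeR adjusted p = 0.042, at most 0.137 without replicate 2 of day 7). Fgf3, a fibroblast growth factor, had 281 counts at day 7 and 3 at baseline over 4 libraries each, a ratio of 89.3 per total counts with a 95% counting interval from 30.3 to 436. Il1b, the gene of interleukin 1 beta, was below the filter, with 0.99, 0.80, 0.58 and 0.48 FPKM at day 7 and 0.90, 0.32, 0.55 and 0.25 FPKM at baseline, and the groups overlapped. Of 26 cytokines and chemokines tested, Csf1, Clcf1 and Il34 rose, 23 did not pass, and the median log2 fold change was 0.75. Clcf1 and Il34 did not stay under 0.05 without each library (at most 0.126 without replicate 1 of day 7 and 0.0746 without replicate 3 of baseline).

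Further large increases were found in genes of varied roles. Lce6a, a gene of the late cornified envelope family, was at 4.19, 7.33, 5.48 and 4.18 FPKM at day 7, against 0.14, 0.23, 0.12 and 0.08 FPKM at baseline (5.32; edgeR adjusted p = 1.38e-06). Cyp26a1, an enzyme that degrades retinoic acid, was at 1.45, 1.15, 1.18 and 0.57 FPKM at day 7, against 0.03, 0.03, 0.03 and 0.00 FPKM at baseline, from 150 and 3 counts, a ratio of 47.7 with a counting interval from 16 to 234. Over 4 libraries each, Fam159a had 151 counts at day 7 and 4 at baseline, and Gm6460, a predicted gene, 93 at day 7 and 1 at baseline. Tmem88b, a membrane protein gene, was at 2.90, 3.62, 2.82 and 2.41 FPKM at day 7, against 0.37, 0.26, 0.32 and 0.35 FPKM at baseline (3.14; edgeR adjusted p = 1.84e-05). Cryba2, a lens crystallin that the list of heat shock proteins includes although it is no such protein, was at 1.84, 2.10, 0.91 and 1.24 FPKM at day 7, against 0.20, 0.00, 0.00 and 0.07 FPKM at baseline (4.30; edgeR adjusted p = 0.00063). Anxa10, an annexin, and Lipn, a lipase, were below the filter, with 35 and 33 counts at day 7 and 0 and 1 at baseline. With a floor of 3 counts set in place of its baseline, the ratio of Anxa10 was 11.1 per total counts. No counting interval was computed for it, so it is no lower bound.

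The 5 lower genes had low levels. Vstm2b, an immunoglobulin domain gene, was at 0.88, 1.28, 0.84 and 0.97 FPKM at day 7, against 2.74, 2.49, 2.72 and 2.99 FPKM at baseline (-1.38; edgeR adjusted p = 0.000472), and passed without each library in turn. The other 4 were Clrn2 (-1.15), Serpina11 (-1.10), Il25 (-1.05) and Ttc34 (-1.03), none above 4.15 FPKM in a library. Without 1 library their adjusted p reached 0.0609 for Clrn2, 0.055 for Serpina11 (both replicate 2 of baseline), 0.14 for Il25 (replicate 3 of baseline) and 0.0893 for Ttc34 (replicate 1 of day 7).

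Most genes around mTOR itself did not pass the test, where 4.53% of all genes tested rose and 2.41% fell. The lists of mTORC1 effectors, ATF4 targets and polyamine genes had larger shares of genes that rose than all genes. Of 34 subunits and regulators of the mTOR complexes, 1 fell, Rragb, a Rag GTPase of the amino acid pathway, with 29.38, 28.66, 30.08 and 30.88 FPKM at day 7, against 36.02, 39.64, 38.72 and 37.75 FPKM at baseline (-0.38; edgeR adjusted p = 0.00731, and 0.0988 without both muscle-high libraries). One rose, Fnip2, a folliculin partner (0.31; edgeR adjusted p = 0.0255, at most 0.0997 without replicate 2 of baseline), and the median was -0.07. Of 24 effectors of mTORC1, Eif4ebp1, Grb10 and Irs2 rose (0.74, 0.43 and 0.92) and 21 did not pass. Each of the 3 missed an adjusted p of 0.05 when some library was left out (at most 0.119 without replicate 1 of baseline for Eif4ebp1, 0.129 without replicate 2 of baseline for Grb10 and 0.0657 without replicate 2 of day 7 for Irs2). Of 31 targets of ATF4, a factor that acts downstream of mTORC1 and of stress, 7 rose and 24 did not pass, with a median of 0.23, and of these 7 Atf3 alone passed without each library in turn. None of 35 genes of sterol and fatty acid synthesis passed in edgeR (unadjusted, 3 were higher and 1 lower; DESeq2, 2 and 1), and their median was 0.03. Of 25 genes listed for glycolysis, 18 had a negative log2 fold change, the median was -0.12, 1 rose and 2 fell. The list includes Bnip3 and Slc2a1, although they are not glycolytic enzymes. Those that fell were Ldhb, a lactate dehydrogenase subunit (-0.36; edgeR adjusted p = 0.0134, at most 0.0583 without replicate 2 of baseline), and Bnip3, a mitophagy receptor (-0.38; edgeR adjusted p = 0.0496, at most 0.17 without replicate 2 of baseline). Slc2a1, the glucose transporter GLUT1, was the one that rose, with 50.36, 57.48, 51.84 and 42.84 FPKM at day 7, against 26.88, 25.03, 26.41 and 32.74 FPKM at baseline (0.84; edgeR adjusted p = 0.00197). Of 19 genes of arginine and polyamine metabolism, 4 rose, 0 fell and 15 did not pass (unadjusted, 5 were higher and 4 lower; DESeq2, 4 and 3), 10 were negative and the median was -0.0044. Azin2, an antizyme inhibitor, and Arg2, an arginase, rose by 0.48 and 0.81 (edgeR adjusted p = 0.00301 and 0.00516, and 0.0593 for Arg2 without both muscle-high libraries), and Odc1, ornithine decarboxylase, and Azin1, another antizyme inhibitor, by 0.74 and 0.31 (edgeR adjusted p = 0.0169 and 0.0191, at most 0.0588 and 0.0727 without replicate 2 of day 7). In the STAT3 pathway, Jak2, a kinase upstream of STAT3, rose by 0.46 (edgeR adjusted p = 0.000403).

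Markers of several non-neuronal cells had positive medians, with few genes past the test. All 15 macrophage markers had a positive log2 fold change, with a median of 1.22. In 13 of them the day 7 libraries all lay above the baseline libraries, as they did in 15.8% of all genes tested. Mrc1, the mannose receptor of tissue macrophages, was the one that passed, with 9.89, 10.84, 8.78 and 7.74 FPKM at day 7, against 3.35, 2.80, 3.24 and 5.38 FPKM at baseline (1.31; edgeR adjusted p = 0.0494, at most 0.155 without replicate 2 of baseline). Without replicate 4 of baseline the median was 1.42 and 5 of the 15 rose, and without both muscle-high libraries it was 1.02 and 0 rose. Replicate 4 had the highest baseline sum of these markers. The muscle-high libraries had the highest day 7 sum and the lowest baseline sum. Each choice therefore pulls the median in a known direction. In the fit of the 8 Mtor-cKO libraries alone 14 of the 15 rose, where 17% of all genes rose. At an unadjusted p under 0.05 in the fit of all libraries 15 were higher, and by DESeq2 6 rose. All 13 markers of myelinating Schwann cells had positive values too, with a median of 0.56; in the fit of all libraries 2 rose, Gldn, a protein of the node of Ranvier (0.74; edgeR adjusted p = 0.00716, and 0.0743 without both muscle-high libraries), and Egr2, the factor of myelination (0.81; edgeR adjusted p = 0.0436, at most 0.122 without replicate 2 of baseline), and 11 rose in the fit of 8. Their summed level was 4020 to 5690 FPKM at day 7 and 3490 to 3780 FPKM at baseline. Adipocyte markers had the largest median of these lists, 1.65 over 7 genes, none of which passed in edgeR (0 by unadjusted p at 0.05, and DESeq2 gave 0), and 6 erythroid markers a median of 0.77, with 0 in each of these counts. Adipocyte markers summed to 108 to 169 FPKM at day 7 and 16.9 to 101 FPKM at baseline, and erythroid markers to 1830 to 3080 FPKM at day 7 and 661 to 2250 FPKM at baseline, the highest baseline value being replicate 4 in both. In Mtor fl/fl mice the median log2 fold changes of the Schwann cell, adipocyte and erythroid markers were negative (-0.36, -1.38 and -0.09). Whether these medians differ between the genotypes was not tested. The median of the macrophage markers was positive in Mtor fl/fl mice too, 0.81, and 0 of the 15 rose. There they summed to 170, 175, 429, 370 and 545 FPKM at day 7. At baseline they summed to 84.1, 81.2, 316 and 384 FPKM, and the groups overlapped.

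**Figure D4:**
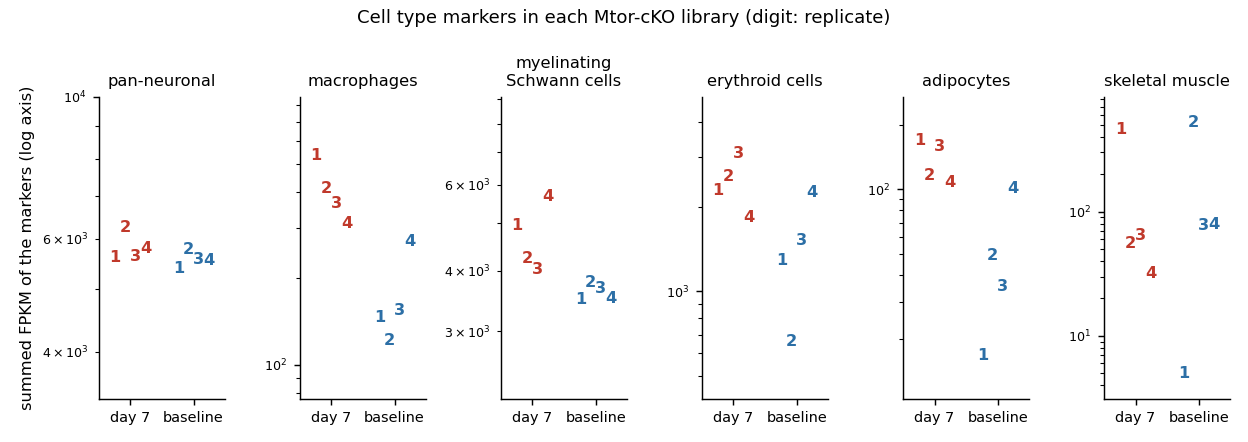
Summed FPKM of the markers of 6 cell types in each Mtor-cKO library, drawn as its replicate number (red, day 7; blue, baseline) on log axes. Macrophage markers are higher in all 4 day 7 libraries (311 to 535) than at baseline (122 to 269), while muscle markers are high in replicate 1 at day 7 (455) and replicate 2 at baseline (526).

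In other lists most members did not pass the test, where 4.53% of all genes tested rose and 2.41% fell. The STAT3, activin, immediate early and satellite glia lists had larger shares of genes that rose than all genes. Of 26 genes of the STAT3 pathway 5 rose (median 0.26), of 21 of the activin and bone morphogenetic protein family 4 rose and 1 fell (0.05), of 10 immediate early genes 3 rose (0.33), of 13 markers of satellite glia 2 rose (0.13), and of 39 genes of the lysosome and autophagy 1 fell (-0.03). Gfap, an intermediate filament of activated satellite glia, was among these (1.70; edgeR adjusted p = 0.0322, at most 0.103 without replicate 2 of baseline), as was Glul, their glutamine synthetase (0.69; edgeR adjusted p = 0.0172, at most 0.0731 without replicate 2 of baseline). Of the 13 satellite glia markers 3 were negative, among them Fabp7 and S100b (-0.72 and -0.29, edgeR adjusted p = 0.0603 and 0.0763). By DESeq2, 2 of the 13 rose and 2 fell. Their median in Mtor fl/fl mice was -0.158. No gene of 9 fibroblast markers (median 0.55) or 11 proliferation genes (0.57) passed in edgeR. In Mtor fl/fl mice these medians were -0.145 and 0.11. At an unadjusted p under 0.05, 3 fibroblast markers and 2 proliferation genes were higher, and DESeq2 called 0 of either.

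Immune effector genes also had positive log2 fold changes. Of 23 genes of complement and antigen presentation all had a positive log2 fold change (median 0.83, and 0.115 in Mtor fl/fl mice) and 2 rose. Unadjusted, 13 were higher and 0 lower, and by DESeq2 4 and 0. C4b, a complement component, was at 29.01, 23.46, 25.98 and 17.85 FPKM at day 7, against 10.52, 9.22, 10.47 and 14.77 FPKM at baseline (1.07; edgeR adjusted p = 0.00201). C3, the central complement component, was at 21.30, 6.38, 6.30 and 5.34 FPKM at day 7, against 1.78, 1.51, 2.70 and 3.55 FPKM at baseline (2.07; edgeR adjusted p = 0.0329, and 0.145 without replicate 1 of day 7, its highest library). Among 28 interferon-stimulated genes, whose median was 0.63 (-0.0736 in Mtor fl/fl mice), Gbp2, a guanylate-binding protein, rose (1.36; edgeR adjusted p = 0.0315, at most 0.111 without replicate 2 of baseline). The summed level of the interferon-stimulated genes was 615, 420, 552 and 323 FPKM at day 7, against 243, 238, 293 and 600 FPKM at baseline, so that replicate 4 of baseline lay above 3 of the 4 day 7 libraries, and 0 of the 28 genes had all day 7 libraries above baseline. Without that library their median was 1.29 and 14 rose, and that of complement and antigen presentation was 1.03, with 4 that rose. That library had the highest baseline level of both lists, so leaving it out pulls the medians up. These counts are a description and lend the rise no further support. Without the 2 libraries highest in muscle the medians were 0.38 for complement and antigen presentation and 0.24 for interferon-stimulated genes, and the part of macrophage number in these lists was not tested. Chad and Col2a1, cartilage genes chosen after their values were seen, were called through 1 library. Chad was at 0.42, 0.83, 0.15 and 9.12 FPKM at day 7, against 0.13, 0.29, 0.13 and 0.14 FPKM at baseline, and Col2a1 at 0.49, 0.33, 0.35 and 18.27 FPKM at day 7, against 0.43, 0.32, 0.40 and 0.39 FPKM at baseline, so that replicate 4 of day 7 decided both (without it, edgeR adjusted p = 0.237 for Chad and 0.991 for Col2a1).

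The response was set beside that of Mtor fl/fl mice, whose injury comparison shares no library with that of Mtor-cKO mice, although all were fitted together. Of the 137 genes higher in Mtor-cKO mice, 103 also rose in Mtor fl/fl mice, where 4.66% of all genes rose, 0 fell and 34 did not pass, and 131 had a positive log2 fold change. Past 2-fold in both genotypes were 88 genes, 64.2% of the 137 and 62.9% of the 140 higher in Mtor fl/fl mice. Of these 140, only 122 reached the level needed for testing in Mtor-cKO mice, and 106 rose there. All 140 had a positive log2 fold change in Mtor-cKO mice, with a median of 1.4, against 1.6 in Mtor fl/fl mice. The 140 were chosen by their Mtor fl/fl values, so these medians are a description. Atf3 changed by 4.74 in Mtor-cKO mice and 4.79 in Mtor fl/fl mice, and Sprr1a by 7.76 and 8.32. Npy was at unlike levels in the 2 genotypes, and its folds could be compared only with low precision. The difference of its log2 fold changes was 0.25 ± 0.85 (± SE; edgeR adjusted p = 0.937), with few counts at the Mtor-cKO baseline. Npy averaged 8.82 ± 1.52 FPKM at day 7 and 0.095 ± 0.0777 FPKM at baseline in Mtor-cKO mice (SD, n = 4 each), and 171 ± 91.1 FPKM at day 7 (SD, n = 5) and 2.47 ± 1.11 FPKM at baseline (SD, n = 4) in Mtor fl/fl mice, with log2 fold changes of 6.38 and 6.13.

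**Figure D5:**
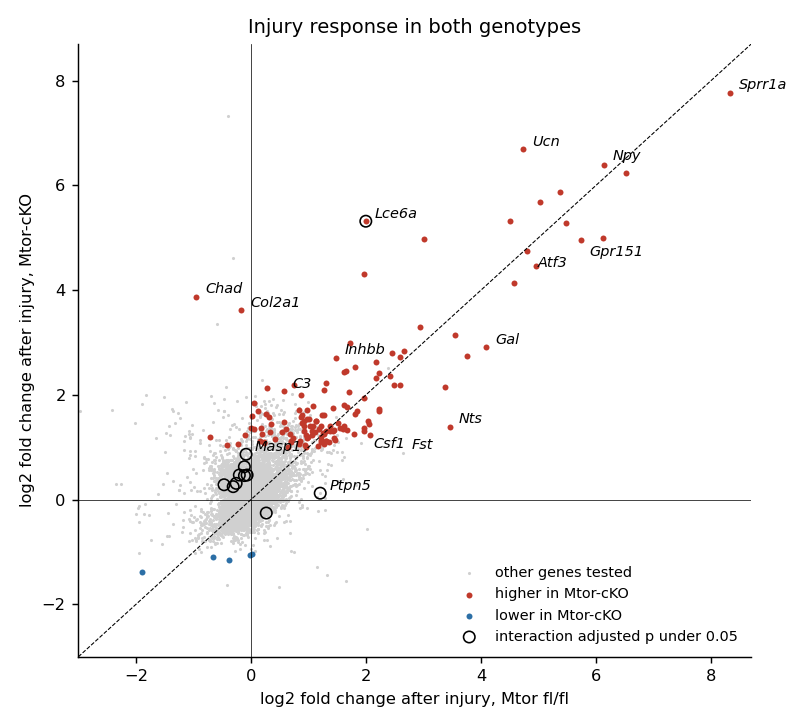
Log2 fold change after injury in Mtor-cKO mice (vertical) against that in Mtor fl/fl mice (horizontal) for the genes tested; red and blue, genes higher and lower in Mtor-cKO, circles, genes whose fold change differed between the genotypes at an adjusted p under 0.05, dashed line, equal fold changes. Atf3, Npy and Sprr1a lie near the line, Lce6a above it and Ptpn5, Gal and Nts below it.

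The interaction test asked which genes responded differently. It found 11 genes of 13408 (0.082%), of which 9 had a larger log2 fold change in Mtor-cKO mice (0.0671%) and 2 a smaller one (0.0149%). The Mtor fl/fl libraries were unlike one another in markers of other cells. Erythroid markers summed to 606, 557, 4090 and 4390 FPKM in Mtor fl/fl baseline replicates 1 to 4, against 661 to 2250 FPKM in the Mtor-cKO baseline libraries. The part of such differences in the interaction was not tested. Lce6a, described above, differed by 3.32 ± 0.56 (± SE; edgeR adjusted p = 0.0303), with a log2 fold change of 5.32 in Mtor-cKO mice and 2.00 in Mtor fl/fl mice, where it averaged 1.94 ± 0.781 FPKM at day 7 (SD, n = 5) and 0.345 ± 0.085 FPKM at baseline (SD, n = 4). Ptpn5, a phosphatase of neurons, differed by -1.08 (edgeR adjusted p = 0.0167). It was at 8.71, 9.37, 8.42 and 7.85 FPKM at day 7, against 8.04, 7.95, 7.57 and 7.48 FPKM at baseline, in Mtor-cKO mice, and at 5.47, 5.48, 7.21, 5.24 and 6.11 FPKM at day 7, against 2.75, 2.49, 1.94 and 2.97 FPKM at baseline, in Mtor fl/fl mice. The Mtor-cKO groups overlapped, and both lay above all Mtor fl/fl libraries. The other 9 differed by 0.52 to 0.95 in size, among them Masp1, a complement serine protease, with 8.12, 8.98, 7.6 and 8.50 FPKM at day 7, against 3.97, 4.95, 4.53 and 4.51 FPKM at baseline, in Mtor-cKO mice, and a log2 fold change of -0.08 in Mtor fl/fl mice. Megf9, a membrane protein with epidermal growth factor repeats, was the only one of the 11 to stay under 0.05 without each of the 17 libraries in turn.

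Several genes of the induced program had unequal folds that did not pass the interaction test. Nts changed by 1.39 in Mtor-cKO mice and 3.46 in Mtor fl/fl mice (difference -2.07; edgeR adjusted p = 0.0527), Fst by 0.89 and 2.64 (-1.75; edgeR adjusted p = 0.069), Gal by 2.91 and 4.09 (-1.19; edgeR adjusted p = 0.14) and Inhbb by 2.71 and 1.47 (1.23; edgeR adjusted p = 0.185). By DESeq2 the adjusted p was 1.63e-05 for Nts, 0.000586 for Fst, 0.0146 for Gal and 0.0616 for Inhbb. The interaction count was 258 by DESeq2, 0 without the 2 libraries highest in muscle (954 at an unadjusted p under 0.05), and between 1 and 119 without each library in turn, the highest without replicate 5 of Mtor fl/fl day 7 and the lowest without replicate 1 or 3 of Mtor-cKO day 7 or replicate 1 of Mtor fl/fl day 7.

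Promoters are shown for 4 induced genes, chosen after their values were seen, with a match to an AP-1 or cyclic AMP response element (CRE) motif, since Jun, Fosl2 and Atf3 encode factors that bind such sites. The windows are the 250 bases before the annotated start, 5′ to 3′ on the gene's strand, from RefSeq on GRCm38.p6, with the motif in capitals. They lie at chr3:92485882-92486131 (minus strand) for Sprr1a, chr5:31138896-31139145 (minus) for Ucn, chr7:24462233-24462482 (plus) for Plaur and chr10:102490419-102490668 (minus) for Nts.
Sprr1a: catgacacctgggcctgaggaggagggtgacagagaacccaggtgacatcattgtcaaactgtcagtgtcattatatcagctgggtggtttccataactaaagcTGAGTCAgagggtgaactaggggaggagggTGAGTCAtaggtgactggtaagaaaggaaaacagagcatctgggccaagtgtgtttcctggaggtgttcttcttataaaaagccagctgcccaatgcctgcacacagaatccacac
Ucn: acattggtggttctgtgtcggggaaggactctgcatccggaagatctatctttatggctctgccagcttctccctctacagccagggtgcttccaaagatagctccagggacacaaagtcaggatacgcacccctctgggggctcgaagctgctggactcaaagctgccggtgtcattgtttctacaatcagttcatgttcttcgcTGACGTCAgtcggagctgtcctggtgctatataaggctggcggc
Plaur: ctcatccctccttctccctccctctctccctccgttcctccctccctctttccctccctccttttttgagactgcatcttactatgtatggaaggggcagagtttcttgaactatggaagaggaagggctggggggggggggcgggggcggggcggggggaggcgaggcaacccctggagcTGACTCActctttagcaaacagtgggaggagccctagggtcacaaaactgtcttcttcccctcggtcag
Nts: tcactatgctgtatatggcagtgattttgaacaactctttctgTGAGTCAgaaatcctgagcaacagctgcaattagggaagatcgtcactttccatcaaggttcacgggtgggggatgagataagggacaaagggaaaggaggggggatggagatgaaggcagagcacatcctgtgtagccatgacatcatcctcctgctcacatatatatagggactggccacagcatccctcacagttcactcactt

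The Sprr1a window holds AP-1 matches starting 146 and 116 bases before the start, those of Plaur and Nts 1 each at 69 and 207 bases, and that of Ucn a CRE at 44 bases. Over whole windows of 250 bases before to 50 after the start, AP-1 (TGANTCA) was found in 10 of the 103 higher genes with a window (9.71%) and in 6.16% of the 10487 tested genes with one, and CRE (TGACGTCA) in 0.971% and 3.48%. The STAT motif (TTCNNNGAA) was found in 12.6% and 8.2%, CARE (TGATGNAA), bound by ATF4, in 4.85% and 2.89%, and the antioxidant response element (TGACNNNGC), bound by NRF2, in 24.3% and 16.9%. Both strands were searched, AP-1 and the antioxidant element can overlap, and a match is a description of the letters and no evidence of binding.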

How the data were processed

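RNA from the L4 and L5 DRGs of each mouse was sequenced on a BGISEQ-500. The authors aligned reads with HISAT2 2.0.4 and Bowtie2 2.2.5 and deposited RSEM 1.2.12 expected counts per gene (35.6% not whole numbers), with FPKM values scaled by transcript length and library. The study's methods name GRCm38.p5 and the submitters' processing notes mm9, so no coordinates were taken from the files. Groups came from the sample labels. Columns of 2 libraries without a sample here (8 columns) were not used, nor were 2 further sheets whose libraries are numbered differently from the samples.

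Expected counts were rounded, and the 13408 genes averaging 1 FPKM or more in some group were fitted with edgeR 4.0.16 (R 4.3.3; TMM, quasi-likelihood), with a coefficient for each of the 4 groups. P-values of the Mtor-cKO comparison were adjusted over 13214 genes and those of the others over 13408. A gene rose or fell at an adjusted p under 0.05, and was called higher or lower if it also changed by more than 2-fold. The SE was taken from the F statistic and is approximate. DESeq2 1.42.0, other filters and left-out libraries were alternatives, and the script was tested on simulated data. Intervals of count ratios cover counting error only.

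The comparison, members and 43 lists were chosen with earlier results of these data known. Named genes were those the study names, the 12 largest called changes in each direction without overlap, up to 4 members of each list with the smallest p, and the 10 smallest interaction p in each direction. Nfil3, Fosl2, Crem, Stat5a, Stat5b, Stmn4, Plaur, Tuba1a, Tubb2a, Stmn3, Kcnip3, Kcnip4, Scn10a, Scn11a, Chad and Col2a1 are outside this rule and were chosen after their values were seen.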

Additional observations from a re-analysis of the deposited data

Results flagged for a closer look

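Dixon's test at the 95% level set 1 library apart in 16 of 118 groups of 4 libraries or more, where chance sets apart about 1 in 20. At day 7 these were C3 at 21.3 FPKM in replicate 1, Flrt3 at 36.9, Gfra3 at 60.8 and Sox11 at 7.36 FPKM in replicate 2, and Chad at 9.12 and Col2a1 at 18.3 FPKM in replicate 4. At baseline they were Ttc34, lowest at 1.35 FPKM in replicate 1, Chad at 0.29 FPKM in replicate 2, Gal at 30.2 and Il25 at 1.75 FPKM in replicate 3, and in replicate 4 Csf1 at 8.67 and Gm6460 at 0.06 FPKM as the highest values and Hrh3 at 2.73 and Cyp26a1 at 0 FPKM as the lowest. The summed muscle markers stood apart at 455 FPKM in replicate 1 of day 7 and at 526 FPKM in replicate 2 of baseline.

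By count, 11 genes responded differently to injury in the 2 genotypes by the interaction test of edgeR (adjusted p under 0.05). The difference in log2 fold change, Mtor-cKO minus Mtor fl/fl, was 3.32 for Lce6a, 0.951 for Masp1, 0.752 for Megf9, 0.742 for Aff1, 0.671 for Adgrf5, 0.572 for Pik3r1, 0.567 for Arhgap31, 0.557 for Tacc1 and 0.536 for Jmjd1c, and it was -0.523 for 0610007P14Rik and -1.08 for Ptpn5. Without the 2 libraries highest in muscle, none of the 11 kept an adjusted p under 0.05 (0.0962 to 0.296).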

How the results depend on the processing

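The counts of 137 genes higher, 5 lower and 11 in the interaction moved with several choices, and the cause was not tested. DESeq2 gave 218 higher and 258 in the interaction. The 8 Mtor-cKO libraries alone gave 386 higher. The filterByExpr filter gave 10 lower and 5 in the interaction, and no filter gave 12 lower. A minimum of 5 FPKM gave 75 higher and 0 lower (0 also at an unadjusted p), and a test against 2-fold (glmTreat) 42 higher and 0 lower (1 unadjusted), both testing a stricter condition. Without the 2 libraries highest in muscle, an alternative chosen after seeing the data, 1 gene was lower and 0 were in the interaction. Without replicate 4 of day 7 and of baseline, also chosen then, 264 were higher, 11 lower and 21 in the interaction. Without 1 library at a time the counts were 105 to 232 higher, 1 to 8 lower and 1 to 119 in the interaction, with 232 and 8 without replicate 4 of baseline. With the replicate number as a block, 113 were higher, 3 lower and 161 in the interaction. Mtor-cKO samples of day 7 and baseline with the same number correlated at -0.448, -0.177, -0.0999 and -0.321, so the numbers do not pair these samples. The Mtor fl/fl samples were not checked in this way, and whether a batch goes with the replicate number was not tested.

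Of 191 named genes tested, 104 passed, and of these 0 changed direction under any of 18 settings, while genes that did not pass, such as Mtor and Myh1, did. Of the 104, 41 lost the call under none of them except glmTreat. Levels under 1 FPKM rest on few counts, and folds against a baseline near 0 are imprecise.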
